A study of Rattus norvegicus with 18 samples.

Results

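The genes described here encode the proteins of the cytosolic ribosome, with 73 genes on the array out of 14506 that had a probe set of their own symbol. They were chosen by name: a probe set with exactly 1 gene symbol in the platform annotation, a symbol of the form Rpl or Rps followed by a number (with the letters and numbers of its variants), and in addition Rplp0, Rplp1, Rplp2 and Rpsa. The 6 genes of the Rps6k kinases, which share the prefix, were left out. Of the 73 genes 45 belong to the large subunit and 27 to the small one. The remaining gene, Rps19bp1, entered through its name and encodes a partner of the Rps19 protein, not a ribosomal protein. All 73 passed the filter on low values, so the members below are the whole set.

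Expression was measured on Affymetrix arrays in medullary thyroid carcinomas (which arise from C cells, the source of calcitonin) of rats with a mutant Cdkn1b gene, which encodes p27Kip1, a brake of the cell cycle. The homozygous group had 6 tumours taken at 9 months. The heterozygous animals gave 6 tumours at an age of 18 months and another 6 at 9 months, each array from an untreated animal with its own code. All were of the mixed Sprague–Dawley white eye/Wistar–Kyoto background, all carried at least 1 mutant Cdkn1b allele in the germ line, and neither wild-type animals nor normal thyroids were included. The labels give no sex, litter or array date. The specimens were whole tissue: C cell markers were high in all groups, but follicular, parathyroid and muscle markers were present too. In heterozygous tumours at 9 months the mean of follicular markers (11.60) was above that of C cell markers (11.20). It was below in homozygous tumours (11.32 against 11.66) and at 18 months (9.73 against 12.38). Pth ran from 6.02 to 14.2 in the 18-month group. In bulk samples fewer cells of a type and less RNA per cell cannot be told apart.

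A ribosome has a small subunit, which reads the mRNA, and a large subunit, which joins the amino acids. Their proteins are made in matched amounts, and the mRNAs of most of them begin with a run of pyrimidines (the terminal oligopyrimidine tract, TOP), through which mTORC1 and Larp1 control their translation and stability together. Rpl5 and Rpl11, when not built into ribosomes, bind Mdm2 and so connect ribosome assembly to p53.

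The starts of several of these genes are shown because the members moved together and this tract is the sequence feature they are known to share. The windows hold 25 bases before and 20 bases after the start given in a RefSeq promoter table (GRCr8), on the strand of the gene, with the longest pyrimidine run that reaches within 10 bases of the start in capitals if it has 7 bases or more. Rpl10a starts in chr20:6390508-6390552 (plus strand), Rpl34 in chr2:221962264-221962308 (minus strand), Rps4y2 in chr4:183000888-183000932 (plus strand), Rps3 in chr1:163195757-163195801 (minus strand), Rpl39 in chrX:121195877-121195921 (minus strand), Rpl22 in chr5:168117936-168117980 (plus strand), Rps19 in chr1:89608663-89608707 (plus strand) and Rpl22l1 in chr2:113683171-113683215 (plus strand).
Rpl10a: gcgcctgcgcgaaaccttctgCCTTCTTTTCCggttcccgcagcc
Rpl34: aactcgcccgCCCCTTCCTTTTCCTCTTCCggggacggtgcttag
Rps4y2: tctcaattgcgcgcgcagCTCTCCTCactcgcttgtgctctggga
Rps3: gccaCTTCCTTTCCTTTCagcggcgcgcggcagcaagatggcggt
Rpl39: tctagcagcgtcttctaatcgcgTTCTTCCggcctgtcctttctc
Rpl22: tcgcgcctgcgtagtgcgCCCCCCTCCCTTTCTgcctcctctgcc
Rps19: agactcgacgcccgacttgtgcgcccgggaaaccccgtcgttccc
Rpl22l1: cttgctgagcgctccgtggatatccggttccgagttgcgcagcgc
Such a run was present in 46 of the 61 members found in that table (75.4%), against 19.1% of 27457 promoters. The 61 include Rps19bp1, which had no such run. On the opposite strand the shares were 4.92% of the members and 21.1% of all promoters. In Rps3 the run lies before the annotated start, as it does in Rpl21 and Rpl7a among others. In Rps28 and Rpl36al1 it begins after the start. A counted run is thus near the annotated start and need not contain it. In Rps19 and Rpl22l1 no run of that length reaches the window. Among other motifs, searched over the whole promoter of 300 bases on both strands, CCGGAAG (the core bound by ETS factors) was found in 29.5% of the members and 9.22% of all promoters, AAGATGG (the YY1 core) in 13.1% and 7.30%, and CACGTG (the E-box bound by Myc) in 8.20% and 6.65%. A match to these letters is a description and not a site.

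Values are log2 expression per probe set. The mean of a member over all arrays ran from 6.68 to 13.9, and 25 of the 73 lay within 2 log2 units of the brightest probe set (14.46). In that range differences may be compressed, which was not measured here. The first principal component of all genes set replicates 1, 2, 3 and 6 of the 18-month group (35.8 to 69.9) apart from replicates 4 and 5 of that group (-11.7 and 4.22), and homozygous replicate 3 (24.0) apart from the other homozygous tumours (-22.0 to -9.68). The tests below were those of limma across 11370 genes, with a gene called at a Benjamini-Hochberg adjusted p under 0.05.

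The ribosomal protein genes differed mainly with age. Compared with heterozygous tumours of 9 months, those of 18 months had 27 of 73 genes lower, 0 higher and 46 that did not pass the test, or 26 of 72 without Rps19bp1. The scaling of the arrays set the size of this count. With each array centred on its median 16 members were lower, and 40 after a further quantile normalization, with 0 higher under both. The shares of all genes called under these scalings are not given here, so neither count is read against a background. In the main fit the share called lower was 37.0%, against 22.4% of all genes tested, and the share called higher was 0%, against 21.6%. The share called in either direction was thus not above that of all genes, 44.1%, and an unadjusted p under 0.05 was found for 52.1% of the members and 51.4% of all genes. What set the members apart in this description was the side: 67 of 73 estimates lay below 0 (91.8%), against 50.6% of all genes. The differences were small, with a median of -0.14 over the members (-0.004 over all genes tested), and the called members fell by 0.12 to 0.54 on the log2 scale. Of the 73 genes 11 had all 6 tumours of 18 months below all 6 of 9 months (15.1%), against 9.00% of all genes, and 0 had them all above, against 9.07%.

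The mean over the 73 genes on each array, a description with no test, was 11.58 ± 0.063 in heterozygous tumours at 18 months and 11.73 ± 0.037 in heterozygous tumours at 9 months (SD, n = 6 each). The 18-month tumours ran from 11.53 through a median of 11.55 to 11.67 and the 9-month heterozygous ones from 11.67 through 11.72 to 11.78, with no overlap, since the highest older tumour (11.671) lay just below the lowest younger one (11.673). Within the older group replicates 2 and 5 were high (11.67 and 11.66) and the other 4 lay between 11.53 and 11.55. Replicates 4 and 5, which lay between the other older tumours and the 9-month heterozygous ones (-28.6 to -18.9) on the first principal component, were at 11.54 and 11.66 here. In each subunit taken alone the 18-month mean was also the lowest of the 3 groups, as the plot of array means shows, but the ranges overlapped slightly. The large-subunit mean reached 11.856 at 18 months and began at 11.849 in heterozygous tumours at 9 months, and the small-subunit mean reached 11.534 at 18 months and began at 11.525 at 9 months.

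**Figure D1:**
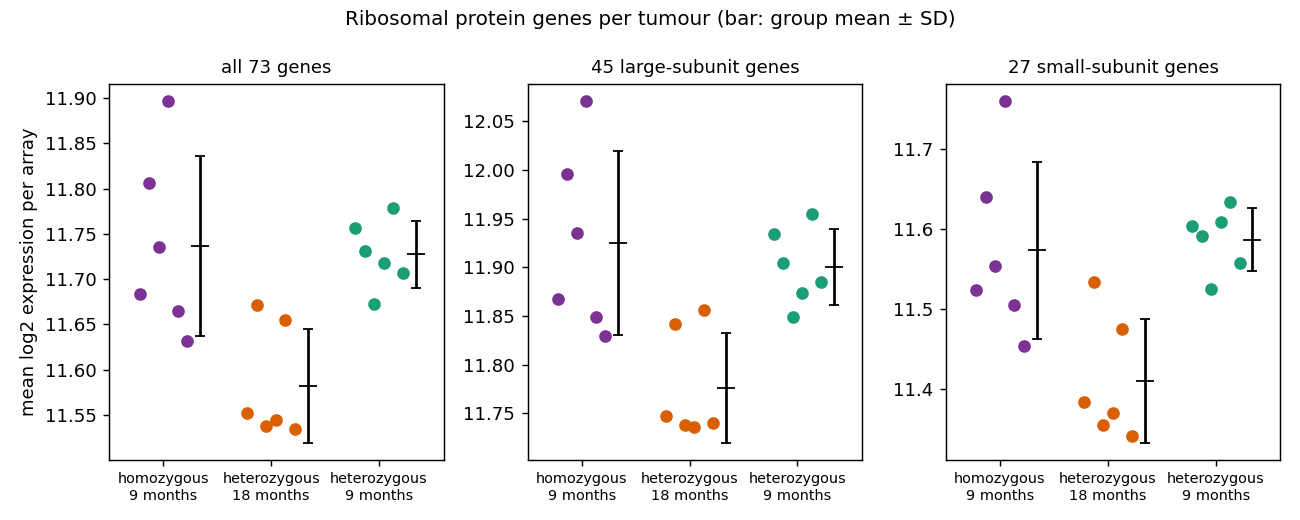
Mean log2 expression of the ribosomal protein genes on each array (points) with the group mean ± SD (bars), for all 73 genes, the 45 large-subunit and the 27 small-subunit genes, in homozygous tumours at 9 months, heterozygous tumours at 18 months and heterozygous tumours at 9 months. For all 73 genes the 18-month tumours lie between 11.53 and 11.67, and the heterozygous tumours of 9 months between 11.67 and 11.78.

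Small-subunit genes were called lower in 11 of 27 cases (40.7%, median difference -0.16, all 27 estimates below 0). Large-subunit genes were called lower in 15 of 45 (33.3%, median -0.12, 39 below 0). Of all genes tested 22.4% were called lower and 50.6% had estimates below 0. Members varied together over the same arrays (median pairwise r 0.39), so estimates of the same sign are not independent. Whether the subunits differ from each other was not tested. In the small subunit the clearest fall was that of Rps19, a protein of the head of the subunit needed for its maturation and mutated in human Diamond-Blackfan anaemia. Rps19 ran from 10.48 through a median of 10.55 to 10.73 at 18 months and from 10.92 through 11.10 to 11.16 in heterozygous tumours at 9 months. The groups did not overlap, and the difference was -0.49 (SE 0.07, limma adjusted p = 0.000259), a level of 71.4% of that at 9 months. The gene had 5 probe sets, which gave differences from -0.50 to -0.48, all called.

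Rps14, a protein at the platform of the small subunit, ran from 10.96 through 11.15 to 11.37 at 18 months and from 11.41 through 11.51 to 11.62 at 9 months, again without overlap (-0.34, SE 0.08, limma adjusted p = 0.00292). Rps3, which lines the entry of the mRNA channel and also acts in DNA repair, had medians of 11.58 at 18 months and 11.98 at 9 months (-0.35, SE 0.09, adjusted p = 0.00448 by limma). For Rps3 replicates 4 and 5 of the older group were the highest of it, at 11.92 and 11.80, and replicate 4 overlapped the younger tumours (11.90 to 12.05). Rpsa, the laminin receptor form of a small-subunit protein, fell by 0.21 (SE 0.07, limma adjusted p = 0.0234), with 5 of 6 older tumours below every younger one. That call was lost without replicate 3 of the 18-month group, without replicate 4 of the heterozygous 9-month group and with arrays centred on their medians, with the adjusted p at most 0.058 over its alternatives.

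Rps4y2 had the largest estimate of all members, and its fall was uneven. It is a paralogue of Rps4x, and the RefSeq table places it on chromosome 4. Its values at 18 months were 7.59, 7.79 and 7.96 in replicates 1, 3 and 6, against 8.49, 8.61 and 8.54 in replicates 2, 4 and 5. Heterozygous tumours at 9 months ran from 8.50 through 8.74 to 8.86, so that only the first 3 and replicate 2 lay below all of them (difference -0.54, SE 0.15, limma adjusted p = 0.00712). Rps4x itself, which has its gene on the X chromosome, ran from 13.5 to 13.8 at 18 months and from 13.8 to 14.0 at 9 months, near the top of the scale, and did not pass (-0.14, SE 0.06, limma adjusted p = 0.0639). The probe sets of such near-identical copies may share signal.

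Rps6, the small-subunit protein phosphorylated by S6 kinases downstream of mTORC1, did not pass, with values from 12.50 through 12.75 to 12.80 at 18 months and from 12.69 through 12.78 to 12.80 at 9 months (-0.04, SE 0.06, limma adjusted p = 0.638). Rps27 was not called either (-0.02, SE 0.12), and it lay low on the scale, at 6.62 ± 0.13 at 18 months and 6.64 ± 0.21 at 9 months (SD, n = 6 each). Rps19bp1 fell by 0.23 (SE 0.05, limma adjusted p = 0.00263).

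In the large subunit Rpl7, an RNA-binding protein of the subunit, had the largest fall. It ran from 11.68 through 11.92 to 12.17 at 18 months and from 12.28 through 12.40 to 12.46 in heterozygous tumours at 9 months, without overlap (-0.44, SE 0.08, limma adjusted p = 0.001). Rpl34 ran from 10.77 through 10.91 to 11.03 at 18 months and from 11.06 through 11.21 to 11.24 at 9 months, also without overlap (-0.30, SE 0.06, adjusted p = 0.000975 by limma). The SD of Rpl7 was 0.17 at 18 months and 0.07 at 9 months, and that of Rpl34 was 0.09 at 18 months and 0.07 at 9 months. Rpl7 was among the 5 members with the largest SD over all arrays.

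Rpl10a, whose protein marks ribosomes enriched on some mRNAs in mouse cells, ran from 11.35 through 11.50 to 11.67 at 18 months and from 11.67 through 11.84 to 11.90 at 9 months. Replicate 5 of the older group (11.674) just overlapped the lowest younger tumour (11.669), and the other 5 older tumours lay below all younger ones (-0.33, SE 0.06, limma adjusted p = 0.000865). Rpl39, a small protein of the wall of the exit tunnel, fell by 0.21 (SE 0.05, limma adjusted p = 0.00281), with 12.52 to 12.71 at 18 months and 12.77 to 12.87 in heterozygous tumours at 9 months. Rpl29 fell by 0.22 (SE 0.06, limma adjusted p = 0.0116).

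The acidic stalk proteins recruit the GTPases of translation. Rplp1 fell by 0.20 (SE 0.06, limma adjusted p = 0.0104), Rplp0, the base of the stalk, was at -0.12 (SE 0.06, adjusted p = 0.0972) and Rplp2, the partner of Rplp1, at -0.05 (SE 0.06, adjusted p = 0.548). Rplp0 passed without replicate 5 of the 18-month group (-0.15), as it did after quantile normalization, and its other probe set was called lower (-0.18). Differences between the stalk genes were not tested. Across the 18 arrays the deviations of Rplp1 and Rplp2 from their group means had an r of -0.39, and Rplp2 was the only member whose r with the mean of the other members was below 0 (-0.12). Of the 2 proteins that bind Mdm2, Rpl11 fell by 0.19 (SE 0.06, limma adjusted p = 0.0150) and lost its call when arrays were centred on their medians (adjusted p = 0.0543), and Rpl5 was at -0.07 (SE 0.08, adjusted p = 0.476) by its brightest probe set. The 3 probe sets of Rpl5 disagreed: they ran from -0.26 to -0.07 with a median r of 0.32 between them, and the other 2 were called lower, so the result for Rpl5 depends on the probe set. Rpl3, a protein near the site of peptide bond formation, was flat, with medians of 12.39 at 18 months and 12.36 at 9 months (0.009, SE 0.05, adjusted p = 0.906).

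**Figure D2:**
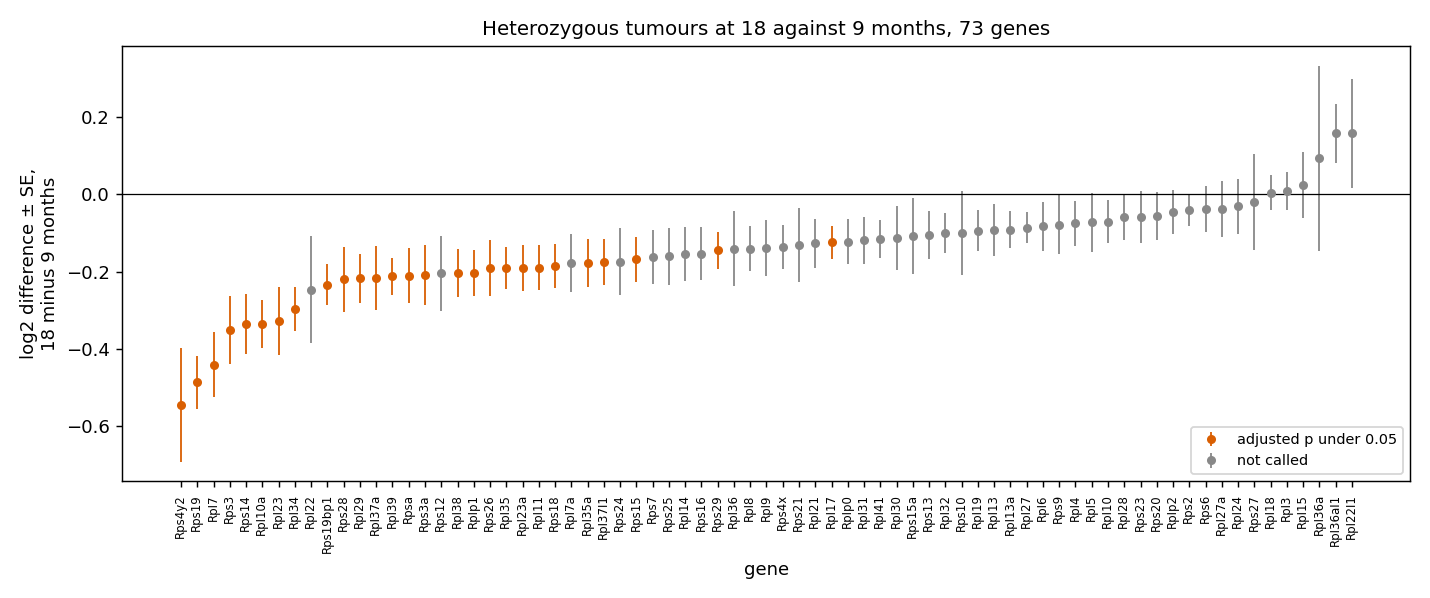
Log2 difference of heterozygous tumours at 18 minus 9 months for each of the 73 genes (points, ± SE of limma), sorted by size, with genes called at an adjusted p under 0.05 in orange. The differences run from -0.54 (Rps4y2) to 0.16 (Rpl22l1), and all 27 called genes are below 0.

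**Figure D3:**
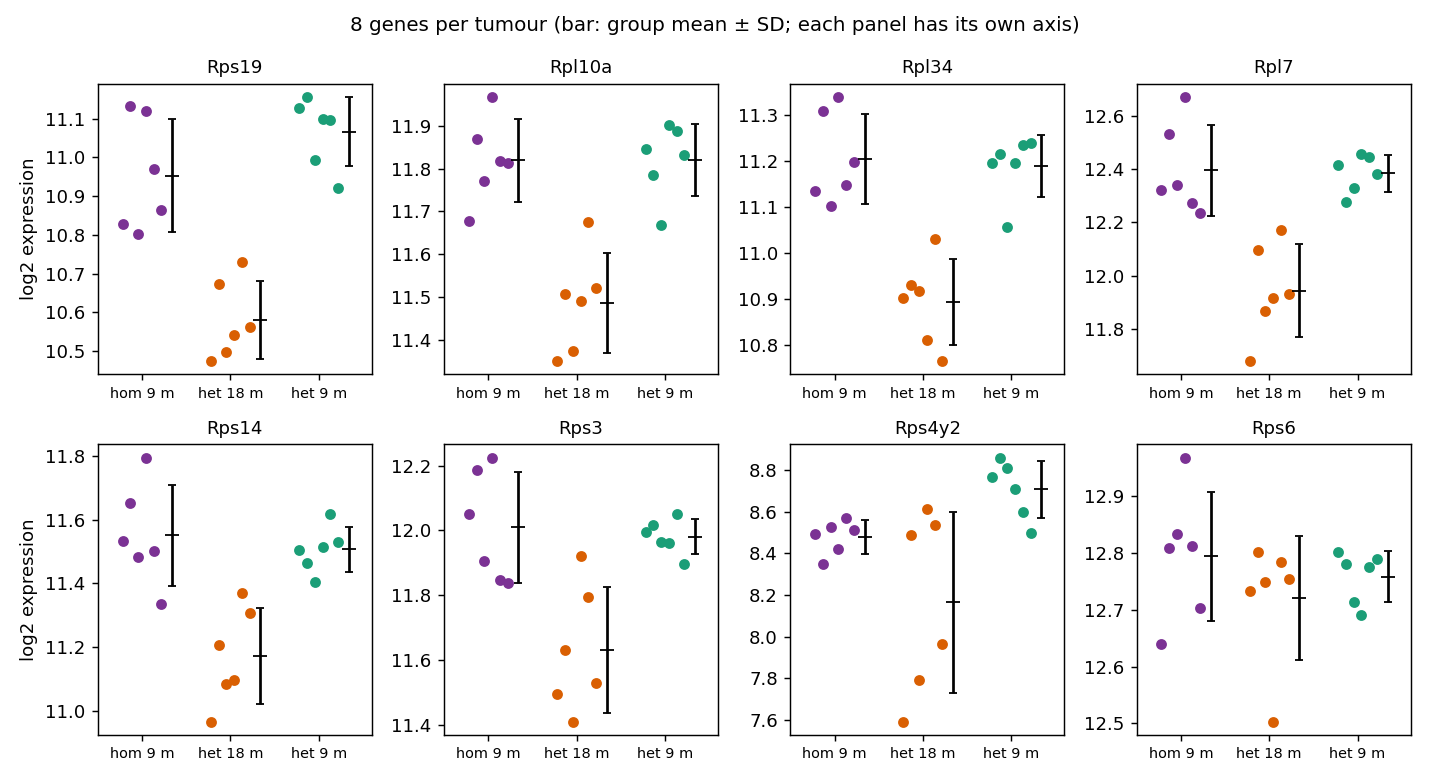
Log2 expression of 8 genes in each tumour (points) with the group mean ± SD (bars), for homozygous tumours at 9 months, heterozygous tumours at 18 months and heterozygous tumours at 9 months, each panel on its own axis. Rps19, Rpl34, Rpl7 and Rps14 have all 18-month tumours below all heterozygous tumours of 9 months, Rps4y2 is low in 3 of the older tumours, and Rps6 overlaps.

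The 6 estimates above 0 belonged to Rpl22l1, Rpl36al1, Rpl36a, Rpl15, Rpl3 and Rpl18, and none was called. Rpl22l1 and Rpl36al1 are paralogues of Rpl22 and of Rpl36a. Rpl36al1 was at 0.16 (SE 0.08, limma adjusted p = 0.105) and passed without replicate 4 of the 18-month group (0.20, adjusted p = 0.0367). Rpl36a itself varied most of all members, with an SD of 0.44 over the 18 arrays. It ran from 11.5 to 12.6 at 18 months and from 11.6 to 12.6 in heterozygous tumours at 9 months (0.09, SE 0.24), and from 11.9 to 13.0 in homozygous tumours. Its 2 probe sets had an r of 1.00 over the arrays.

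In each group the tumour with the highest Rpl22 had the lowest Rpl22l1. In mouse cells the Rpl22 protein binds the transcript of Rpl22l1 and lowers it. At 18 months Rpl22 was 9.88 to 10.11 in 5 tumours and 10.73 in replicate 4, the same tumour in which Rpl22l1 was lowest (7.04, against 7.42 to 7.94 in the others). In heterozygous tumours at 9 months the highest Rpl22 (10.47) and the lowest Rpl22l1 (7.10) were again in 1 tumour, replicate 4, and in homozygous tumours both were in replicate 2 (10.80 and 7.05). The other tumours did not keep this order. Homozygous replicate 5 had Rpl22l1 at 7.07 with Rpl22 at only 10.29, and homozygous replicate 4 had the highest Rpl22l1 of its group (7.62) with Rpl22 at 10.63. Over the 18 arrays the deviations from group means had an r of -0.47, a description in which all points come from whole tissue. That r includes replicate 4 of the 18-month group, which lay far from the others in Rpl22. The parathyroid marker mean of the 3 tumours with the highest Rpl22 was 12.40, 12.37 and 8.67, the highest of its group in the first 2 and the lowest in the third. Its part in the pattern was not tested. Neither gene was called with age: Rpl22 was at -0.25 (SE 0.14, limma adjusted p = 0.157) and Rpl22l1 at 0.16 (SE 0.14, adjusted p = 0.388). Without replicate 4 of the 18-month group Rpl22 passed at -0.37.

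**Figure D4:**
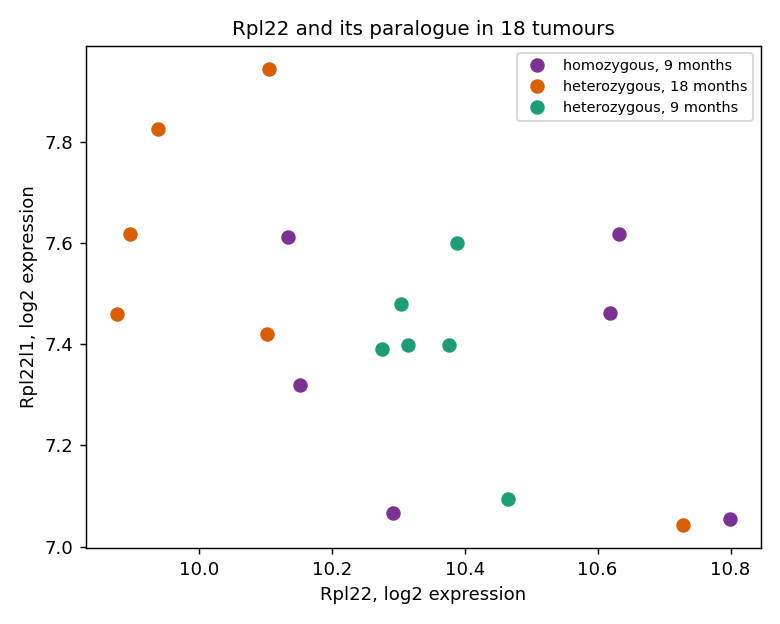
Log2 expression of Rpl22 (horizontal) and of its paralogue Rpl22l1 (vertical) in the 18 tumours, coloured by group. In each group the tumour furthest right is also the lowest, for example the 18-month tumour at 10.73 and 7.04. The other tumours do not keep this order, for example the homozygous tumour at 10.29 and 7.07.

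Homozygous and heterozygous tumours at 9 months did not differ in any member by the test, and no gene of the array passed it (0% of 11370). With only these groups in the fit 24 genes passed, with a variance per group 25 and with array weights 118, and 0 of them were members. The mean over the 73 genes was 11.74 ± 0.099 in homozygous and 11.73 ± 0.037 in heterozygous tumours (SD, n = 6 each). The median difference was 0.002, with 40 estimates above and 33 below 0, and 1 member had an unadjusted p under 0.05 (1.37%, against 8.75% of all genes). Groups that did not overlap were found for 1 member higher in homozygous tumours (0.651% of all genes) and 0 lower (0.915%). That member was Rpl18, of the large subunit. For Rpl18 all 6 homozygous tumours (12.71 to 12.82) lay above the 6 heterozygous ones (12.60 to 12.70), a difference of 0.11 (SE 0.05, limma adjusted p = 0.525). The next smallest p-values in each direction belonged to Rpl5 (0.13, SE 0.08) and Rpl24 (0.11, SE 0.07), higher in homozygous tumours, and to Rps19 (-0.11, SE 0.07), Rps4y2 (-0.23, SE 0.15) and Rps24 (-0.12, SE 0.09), lower in them, with limma adjusted p-values from 0.629 to 0.686.

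The homozygous tumours were more spread. For 68 of the 73 genes (93.2%) the SD was larger in homozygous than in heterozygous tumours at 9 months, as it was for 76.3% of all genes tested. The median SD of a member was 0.12 in homozygous and 0.07 in heterozygous tumours, and that of all genes 0.16 and 0.11. Homozygous replicate 4 had the highest mean over the members (11.90) and replicate 6 the lowest (11.63). The 18-month group was also wider than the 9-month heterozygous one, for 89.0% of the members and 83.0% of all genes.

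The third comparison, of homozygous tumours at 9 months against heterozygous tumours at 18 months, mixes genotype and age, which cannot be told apart in it, and shares its samples with the comparisons above. In homozygous tumours 26 of 73 genes were higher (35.6%, against 16.2% of all genes) and 0 were lower (13.6% of all genes), with a median difference of 0.15. Of all genes 29.8% were called in either direction. An unadjusted p under 0.05 was found for 56.2% of the members and 41.8% of all genes. The groups did not overlap for 5 members higher in homozygous tumours (6.85%, against 1.26% of all genes) and 0 lower (against 0.994%). Rpl34 was higher by 0.31 (SE 0.06, limma adjusted p = 0.00462), Rps19 by 0.37 (SE 0.07, adjusted p = 0.00469), Rpl7 by 0.45 (SE 0.08) and Rpl10a by 0.33 (SE 0.06), each in 6 of 6 tumours. Rps14 (0.38, SE 0.08), Rps3 (0.38, SE 0.09), Rpl29 (0.24, SE 0.06) and Rpl39 (0.18, SE 0.05) were also called. The count is unstable. It was 16 and 15 without homozygous replicates 2 and 4, 15 without replicate 3 of the 18-month group, and 5 with the spread taken from these groups alone.

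The members varied together and little. Within groups the median SD of a member was 0.10, against 0.16 for all genes tested, and 63 of 73 lay below that median. Their deviations from group means had a median pairwise r of 0.39 over the 18 arrays, with 87.4% of the 2628 pairs above 0, and for 54 members r with the mean of the others was at least 0.5. These correlations share arrays and, for bright probe sets, the same part of the scale. No such r is given here for other genes, so they do not show that varying together is particular to this set. Of all genes outside the set, the one whose deviations were most like the members' mean was Fau (r = 0.79, n = 18), which encodes a small-subunit ribosomal protein fused to a ubiquitin-like protein and is not caught by the naming rule. It fell with age by 0.20 (SE 0.06, limma adjusted p = 0.0151). Ngly1, Calhm6, Magoh and Col14a1 followed with r from 0.73 to 0.75, and none of these 4 was called with age.

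The array carried 261 probe sets for the 73 genes, up to 21 for 1 gene. Of these 93 were called lower at 18 months (35.6%) and 0 higher. The share over all probe sets of the array is not given here. With 1 probe set per gene the share called lower was 37.0% of the members and 22.4% of all genes tested. Probe sets of 1 gene mostly gave similar values, with a median r of 0.97 over the genes with several, so they are not independent measurements. The exceptions included Rpl5 (0.32), Rpl4 (0.49), Rps3 (0.50) and Rpsa (0.57). All 19 called members with several probe sets had them all below 0, and in 17 all were called. Only Rpl28 and Rpl31 had probe sets of opposite sign (-0.07 to 0.02 and -0.15 to 0.20), and neither gene was called. The 46 members with a pyrimidine run near the annotated start, not always across it, had a median age difference of -0.16 with 20 called. The 15 without had -0.12 with 3 called, and Rps19bp1, not a ribosomal protein, was among these 3. That difference was not tested, and Rps19, with no run in the window, had the second largest fall of all.

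Other lists of the translation machinery held genes called in both directions or few called genes, and no difference between them and the ribosomal protein genes was tested. Of 50 ribosome biogenesis and RNA polymerase I genes 12 rose and 4 fell at 18 months (median 0.04), against 21.6% and 22.4% of all genes. Bop1, a factor of large-subunit assembly, rose by 0.34 (SE 0.08, limma adjusted p = 0.00258) and Nop56, a core protein of the snoRNPs that methylate rRNA, by 0.41 (SE 0.12). Polr1d, a subunit of RNA polymerases I and III, fell by 0.42 (SE 0.07) and Sbds, which helps release Eif6 from the large subunit, by 0.24 (SE 0.07). Of 68 mitochondrial ribosomal protein genes 5 rose and 11 fell (median -0.03), against the same shares of all genes. Mrpl38 rose by 0.43 (SE 0.08), Mrps2 by 0.28 (SE 0.07), and Mrpl52 and Mrpl16 fell by 0.47 (SE 0.08) and 0.33 (SE 0.07).

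The counts of the next lists also stand against 21.6% of all genes called higher and 22.4% called lower. Among 19 measured translation factors and other TOP transcripts 1 rose and 5 fell (median -0.10). Pabpc4, a poly(A)-binding protein, fell by 0.36 (SE 0.09) and the elongation factor subunit Eef1d by 0.28 (SE 0.08), and Hnrnpa1, a splicing factor, rose by 0.38 (SE 0.12). Fau, Rack1, a scaffold protein bound to the small subunit, and Btf3, a subunit of the nascent polypeptide-associated complex, were the other called genes, all lower. Of 27 initiation factors and mTORC1 regulators 8 rose and 5 fell (median 0.06). Castor2, a partner of the arginine sensor Castor1 of the mTORC1 pathway, rose by 0.57 (SE 0.08) and the scaffold Eif4g3 by 0.34 (SE 0.09), and Eif1ax, a factor of start codon scanning, fell by 0.64 (SE 0.14) and Eif4ebp1, an inhibitor of Eif4e controlled by mTORC1, by 0.48 (SE 0.11). Of 8 Myc family genes 2 rose and 3 fell (median -0.15). Myc, which drives ribosomal protein genes in many cells, ran from 6.53 to 8.05 at 18 months and from 7.81 to 8.97 in heterozygous tumours at 9 months (-1.03, SE 0.30, limma adjusted p = 0.0112), Mxd4 fell by 0.44 (SE 0.12), and Max and Mxd1 rose by 0.21 (SE 0.06) and 0.31 (SE 0.11). Of 9 genes of the p53 and 5S RNP list 1 rose, Rpf2, which brings Rpl5 and Rpl11 into the large subunit (0.38, SE 0.12).

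Markers of other cell types moved with age as well, where 21.6% of all genes tested were called higher and 22.4% lower. Of 10 follicular genes 9 fell, and the list mean ran from 7.40 to 11.4 at 18 months and from 11.5 to 11.6 in heterozygous tumours at 9 months. All 9 endothelial genes fell (8.21 to 10.1 at 18 months, 10.1 to 10.3 at 9 months), and 10 of 12 C cell genes rose (11.6 to 12.7 at 18 months, 10.9 to 11.5 at 9 months). Of 4 parathyroid genes 1 rose and 2 fell (8.23 to 12.4 and 9.34 to 12.4), and of 10 muscle genes 1 fell (6.81 to 10.8 and 9.49 to 11.6). All 7 adipocyte genes fell, 4 of 8 fibroblast genes fell and 1 rose, 1 of 9 leukocyte genes fell and 1 of 9 proliferation genes rose. Their part in the fall of the ribosomal protein genes was not tested. In replicates 4 and 5 of the 18-month group, where the follicular mean was 11.4 and 11.1, the mean of the ribosomal protein genes was 11.54 and 11.66. Without either tumour in turn 26 and 27 members were called lower. Each of those fits kept the other tumour and was not a test of cell content.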

How the data were processed

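RNA of 18 tumours was measured on 1 array each. The authors deposited log2 values. Per the submitters' processing notes RMA was used, and the software named there is Expression Console (Affymetrix, 1.3.0.187), with no order or role given. Array medians lay between 7.55 and 7.65. Precision is limited by the number of arrays, since they have no read depth.

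Of 29214 probe sets 15310 had 1 symbol, 323 several and 13581 none in the platform annotation. The probe set with the highest mean was used for each gene, and 11370 genes at or above the 30th percentile (6.32) were tested. RefSeq tables (GRCr8) held the gene IDs of 72 members and the promoters of 61. With limma 3.58.1 (R 4.3.3) 1 mean per group was estimated by lmFit from all 18 arrays and tested two-sided with eBayes, after a check on simulated arrays. SEs and adjusted p-values are limma's.

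The members and lists were chosen with earlier results of these data known. Genes were named by rule: the 8 called members with the smallest p in each direction of a comparison (3 where none was called), a fixed list of stalk, Mdm2-binding and paralogous members, the 5 with the largest SD, and up to 2 called genes in each direction from each other list. Rps27a, Rps27l, Rpl3l, Rpl39l, Rpl10l, Rpl7l1 and Rpl36al had no probe set of that symbol and were not analysed under it. Other members were named after their values were seen. Alternatives were the filter, the replicate number as a block, the compared groups only, other variance models, array weights, scaling, probe set choice and leaving out each array.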

Additional observations from a re-analysis of the deposited data

Results flagged for a closer look

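Of 81 groups of 6 values (26 named members and the mean of all members, in 3 groups), 6 held a tumour that stood far from the others of its group. Chance gives about 1 in 20 for independent groups, so 6 of 81 lies near that share. The members vary together, and some were named for a large SD over all arrays, Rpl22 among them. At 18 months replicate 4 was low for Rps6 (12.503, the others 12.733 to 12.801) and high for Rpl22 (10.728, the others 9.877 to 10.106), and replicate 2 was low for Rplp2 (12.293, the others 12.473 to 12.545). Among homozygous tumours replicate 4 was high for Rplp1 (12.611, the others 12.298 to 12.389). Among heterozygous tumours at 9 months replicate 3 was low for Rpl34 (11.056, the others 11.196 to 11.239) and replicate 1 was high for Rps4x (13.971, the others 13.799 to 13.852).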

How the results depend on the processing

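The count of members called lower at 18 against 9 months in heterozygous tumours was 27 and ranged from 19 to 31 without each array in turn. It was 16 with arrays centred on their medians. The other alternatives gave 25 to 40. Shares of all genes called lower under the alternatives are not given here. Of the 27 genes 16 were called under every alternative run. The median difference of -0.14 ranged from -0.164 to -0.11 without each array. For homozygous against heterozygous tumours at 9 months 0 members were called under any alternative, and the median of 0.002 ranged from -0.037 to 0.026. For homozygous tumours at 9 months against heterozygous tumours at 18 months the count of 26 became 5 with only the compared groups in the fit, 15 with a variance per group and 14 with centred arrays, and ranged from 15 to 30 without each array, with the median difference between 0.123 and 0.167. With only the compared groups fewer arrays set the spread, and the heterozygous 9-month tumours were left out of it. The median SD of a member was 0.067 in those tumours, 0.122 in homozygous tumours and 0.108 at 18 months. The cause of the changes in this count was not tested. Samples that share a replicate number came from different animals, so the numbers do not pair animals. Their deviations had r from -0.127 to 0.327 in the age comparison. There the same-numbered 9-month array was the best match for replicates 2, 4 and 5 of the 18-month group and not for replicates 1, 3 and 6. Whether the numbers mark a shared processing step was not tested. With the replicate block 26, 0 and 24 members were called for age, for genotype and for the comparison that mixes them.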
